A study of Mus musculus with 6 samples.

Results

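The genes described here are 36 genes that carry a cell through G2 and mitosis, from the cyclin B and Cdk1 switch to the motors that divide the cell. They were listed by name and looked up among probe sets with exactly 1 gene symbol, taking for each gene the probe set with the highest mean over the 6 arrays. Of the 36 genes, 35 were found among 19938 genes, and Ccnb1, cyclin B1, was not found under a single symbol and is not analysed here. The lookup itself used no difference between the groups, but the list was drawn up with earlier results of these data known.

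The samples were mouse KSL cells, bone marrow cells with cKit and Sca1 and without lineage markers, which hold the haematopoietic stem cells and early progenitors. Of the 6 arrays, 3 were labelled Runx1;Runx3 double knockout, with the genotype Runx1 fl/fl, Runx3 fl/fl and Mx1-Cre+, and are called DKO. The other 3, called WT, came from Mx1-Cre- littermates, which carry the same floxed alleles of both genes. Both groups are on the C57BL/6 background after at least 3 backcross generations, and the protocol text, the same for both, gives 4-week-old mice 7 injections of 600 µg pIpC on alternate days. Interferon drives the Mx1 promoter of the Cre recombinase, and pIpC triggers interferon. Only the DKO group carried Cre, and no Cre+ arrays without floxed alleles were present, so the effects of Cre and of the deletions cannot be told apart. No interval between the last injection and the harvest of the cells was found in the labels. Each WT sample was pooled from 3 mice, pooling of DKO samples is not stated, and the design text counts 6 mice, so whether a replicate is a mouse or a pool is unsettled.

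All values are log2 signals of Affymetrix Mouse Gene 1.0 ST arrays, a difference is DKO minus WT on that scale, and the number of arrays limits the precision. A gene is called higher or lower where its Benjamini-Hochberg adjusted p over all 19938 genes, from limma, is under 0.05. Array medians over all genes lay between 5.88 and 5.91, and correlations between arrays between 0.976 and 0.995. The Runx1 probe set read 9.22, 9.37 and 9.28 in DKO and 8.49, 8.53 and 8.38 in WT. The Runx3 probe set read 7.40, 7.40 and 7.34 in DKO and 7.53, 7.59 and 7.47 in WT. Runx1 was therefore called higher in DKO (0.82, limma adjusted p = 0.000427) and Runx3 did not pass (-0.15, limma adjusted p = 0.253). A whole-gene signal can rest on probes outside the deleted exons, so neither value checks the labels, and DKO stands for the library labelled so. Of 7 listed surface markers, 6 were found (Ly6a, which encodes Sca1, was not). Of those found only Kit is named in the stated sort. Kit read 10.35, 10.72 and 10.38 in DKO and 9.78, 9.63 and 9.85 in WT, a difference of 0.73 (limma adjusted p = 0.00289). Slamf1 (1.95), Cd48 (1.46) and Ptprc (0.76) were also called higher in DKO, Flt3 was called lower (-1.32, limma adjusted p = 0.000434) and Cd34 did not pass (0.02). The sorted cells of the 2 groups thus differed in stem and progenitor surface genes, and the part of this in the members' values was not tested.

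Genes of G2 and mitosis are transcribed late in the cell cycle and fall silent in resting cells. In resting cells the DREAM complex, in which MuvB joins pocket proteins and E2F4, holds them down, and in dividing cells MuvB works with B-Myb and then Foxm1 to switch them on. MuvB contacts a short promoter element, the cell cycle genes homology region or CHR, often near CCAAT boxes bound by the factor NF-Y. In KSL cells these genes are known as marks of cycling, since the most primitive stem cells are mostly at rest while early progenitors divide.

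The promoters of 4 members are shown because they hold both elements close to the start site, as most members with a promoter sequence do. Each line gives the 150 bases before the annotated start from RefSeq, build GRCm38.p6, 5′ to 3′ on the gene's strand, and capitals mark the CHR core (TTTGAA, or TTCAAA on the other strand) and the CCAAT box (CCAAT, or ATTGG). The Cdk1 stretch is chr10:69352913-69353062 on the minus strand, the Kif11 stretch chr19:37376232-37376381 on the plus strand, the Ube2c stretch chr2:164769779-164769928 on the plus strand, and the Cdc20 stretch chr4:118437344-118437493 on the minus strand.
Cdk1: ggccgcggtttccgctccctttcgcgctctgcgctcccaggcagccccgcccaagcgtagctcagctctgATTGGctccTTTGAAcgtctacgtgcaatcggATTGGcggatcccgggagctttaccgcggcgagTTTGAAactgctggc
Kif11: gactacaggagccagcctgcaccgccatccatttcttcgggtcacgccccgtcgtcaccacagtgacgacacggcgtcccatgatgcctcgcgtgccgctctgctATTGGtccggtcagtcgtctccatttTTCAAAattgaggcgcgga
Ube2c: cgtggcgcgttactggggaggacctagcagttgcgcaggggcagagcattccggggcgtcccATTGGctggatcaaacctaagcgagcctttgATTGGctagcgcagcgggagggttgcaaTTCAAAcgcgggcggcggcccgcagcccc
Cdc20: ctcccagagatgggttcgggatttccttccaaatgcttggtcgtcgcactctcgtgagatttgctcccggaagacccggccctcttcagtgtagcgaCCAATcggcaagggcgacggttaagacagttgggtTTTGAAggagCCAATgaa

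RefSeq windows of 300 bases, from 250 before to 50 after the start, were matched to 31 of the 36 listed genes, 34 windows in all. Aurkb, Ccna2, Foxm1, Kif20a and Tpx2 had none. The CHR core stood on either strand in 27 of the 34 windows (79.4%), those of 24 genes, against 17.9% of all 32851 windows. In 22 genes a CHR core lay within 50 bases of the start. The CCAAT box was found in 28 windows (82.4%), against 37.4% of all windows. Both together were found in 24 windows (70.6%), those of 21 genes, against 6.95% of all windows. No CHR core was matched in the windows of Birc5, Bub1, Ccnb1, Cenpe, Mad2l1, Nek2 and Nusap1. The Runx core was searched as TGTGGT, and on the other strand as the complement ACCACA, and was in 5 windows (14.7%) of Ect2, Kif11, Kif2c and Plk1, against 16.8% of all windows. In 132 windows of the other mitotic genes and relatives described below, the CHR core was in 36.4% and the CCAAT box in 58.3%. Both together were in 25.8% of these windows and the Runx core in 8.33%. CHR and CCAAT letters were thus frequent among the members while the Runx core was about as frequent as over all windows. A match is a description of letters, not a bound site.

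**Figure D1:**
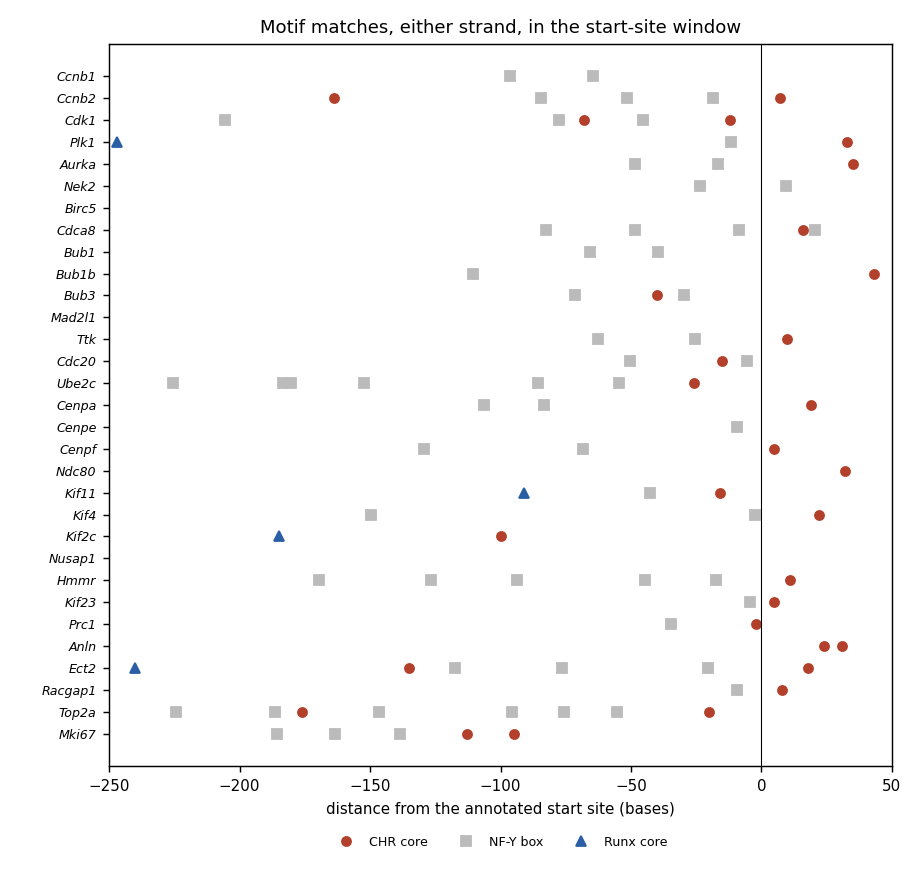
Positions of motif matches on either strand (x axis, bases from the annotated start at 0, from 250 before to 50 after) in 1 RefSeq window for each of 31 genes (y axis), with circles for the CHR core, squares for the CCAAT box (NF-Y box in the legend) and triangles for the Runx core. For genes with several windows the one lowest in coordinate is drawn; circles crowd around the start, and Birc5, Mad2l1 and Nusap1 have no match.

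G2 and mitosis genes as a list did not shift between DKO and WT beyond their spread, and 2 of the 35, Cdk1 and Foxm1, were called higher in DKO. None was called lower, and 33 did not pass. Over all genes 9.71% were called higher (1936 genes) and 7.69% lower (1533 genes), or 2254 and 1121 genes with the arrays centred on their medians. At an unadjusted p under 0.05 there were 6 of the 35 members, against 6168 of all 19938 genes. The differences ran from -0.54 (Cdca8, a fold of 0.688) to 0.49 (Cdk1, a fold of 1.40), with 18 positive and 17 negative. Their median was 0.0014, beside -0.04 over all genes. The sign count followed the scaling, with 12 positive after quantile normalisation, 13 after cyclic loess and 21 after median centring. With a trend over signal and gene span removed 10 were positive. In the same order the members' median was -0.103, -0.0965, 0.0467 and -0.107. The groups did not overlap for 4 members (11.4%), Cdk1 and Foxm1 higher and Plk1 and Nek2 lower, against 35.8% of all genes. The 95% intervals of all 35 differences lay within a 2-fold change either way, and those of 28 within a 1.5-fold change. In bulk RNA, fewer cells in G2 or mitosis and less of each transcript per cell cannot be told apart.

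**Figure D2:**
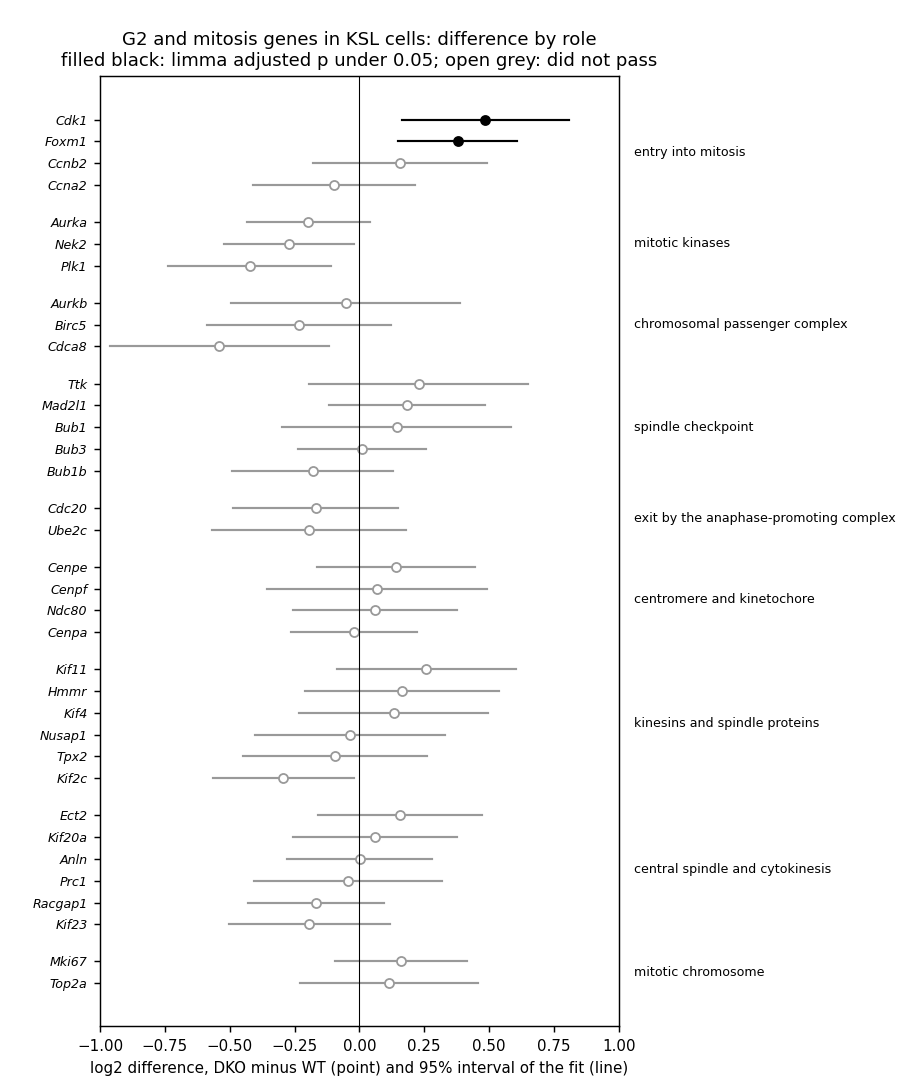
Log2 difference of DKO minus WT (x axis; point, with a line for the 95% interval of the limma fit) for each of the 35 genes (y axis), grouped by role. Cdk1 (0.49) and Foxm1 (0.38) are the 2 filled black points, and the other 33, in open grey, did not pass; all intervals stay within a 2-fold change.

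Among the genes of entry into mitosis, Cdk1 and Foxm1 were higher in DKO, while the cyclins Ccna2 and Ccnb2 did not pass. Cdk1, the kinase whose activity starts mitosis, read 8.69, 8.23 and 8.78 in DKO and 8.003, 8.23 and 8.01 in WT. The lowest DKO array and the highest WT array, both numbered 2, nearly met. The difference was 0.49 ± 0.143 (SE, n = 3 each), a fold of 1.40, with a limma adjusted p of 0.0445. Foxm1, the forkhead factor that activates mitotic genes, read 7.03, 6.93 and 6.83 in DKO and 6.69, 6.57 and 6.40 in WT. Every DKO array stood above every WT array, and the difference was 0.38 ± 0.102 (SE, n = 3 each), a fold of 1.30, with a limma adjusted p of 0.0317. Ccnb2, cyclin B2, an activating partner of Cdk1, read 9.67, 9.41 and 9.56 in DKO and 9.38, 9.71 and 9.09 in WT, at 0.16 with overlapping groups. Ccna2, cyclin A2, which acts in S phase and G2, read 8.63, 8.24 and 8.65 in DKO and 8.47, 8.84 and 8.50 in WT, at -0.10 with overlapping groups. Both calls sit near the threshold. The Cdk1 call was lost without DKO 1 (limma adjusted p = 0.149), DKO 3 (0.162), WT 1 (0.102) or WT 3 (0.120), and with quantile normalisation (0.112), in a range of 0.00921 to 0.162 over 17 alternatives. The Foxm1 call was lost without DKO 1 (limma adjusted p = 0.119), DKO 2 (0.0851), DKO 3 (0.0544), WT 2 (0.0581) or WT 3 (0.0959), in a range of 0.0199 to 0.123.

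The 3 kinases Plk1, Aurka and Nek2 all had lower means in DKO, also in each of the 17 alternatives, and none passed. Plk1, polo-like kinase, which drives centrosome maturation and mitotic entry, read 6.88, 6.44 and 6.64 in DKO and 6.89, 7.31 and 7.03 in WT. DKO 1 lay just under WT 1, so the groups did not overlap, and the difference was -0.42 ± 0.140 (SE, n = 3 each), a fold of 0.746, with a limma adjusted p of 0.0671. Plk1 was called lower without DKO 1 (limma adjusted p = 0.0485), without WT 1 (0.0416) and without the dimmest 50% of genes (0.0464), in a range of 0.0416 to 0.364. Nek2, a kinase that separates the centrosomes, read 6.78, 6.61 and 6.80 in DKO and 6.86, 7.20 and 6.94 in WT, at -0.27 without overlap (limma adjusted p = 0.131). Aurka, aurora kinase A of the spindle poles, read 7.99, 7.76 and 8.04 in DKO and 8.10, 8.25 and 8.03 in WT, at -0.20 with overlap (limma adjusted p = 0.243).

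The chromosomal passenger complex, which corrects faulty chromosome attachments and then acts at the cleavage site, also had 3 negative differences and no call. Cdca8, borealin, its targeting subunit, read 7.55, 6.94 and 7.39 in DKO and 7.49, 8.15 and 7.86 in WT. DKO 1 lay above WT 1, and the difference of -0.54 ± 0.189 (SE, n = 3 each) had a limma adjusted p of 0.0814, and 0.0259 without WT 1, in a range of 0.0259 to 0.424. Birc5, survivin, read 9.18, 8.84 and 9.23 in DKO and 9.26, 9.63 and 9.05 in WT, at -0.23 (limma adjusted p = 0.360). Aurkb, aurora kinase B, the enzyme of the complex, read 8.25, 7.74 and 8.16 in DKO and 7.69, 8.48 and 8.14 in WT. Its 2 groups covered each other almost wholly, at -0.05 (limma adjusted p = 0.883), and the sign was positive without DKO 2 (0.10) or without WT 2 (0.13).

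Of the 5 spindle checkpoint genes, which hold back anaphase until every chromosome is attached, 4 had positive differences, Bub1b a negative one (-0.18), and none passed. Bub1, a checkpoint kinase of the kinetochore, read 8.51, 7.82 and 8.57 in DKO and 8.07, 8.43 and 7.97 in WT. The DKO arrays held both the lowest and the highest value, with an SD of 0.416 in DKO and 0.241 in WT, and the difference was 0.14 (limma adjusted p = 0.670). Ttk, the kinase that starts the checkpoint signal, read 8.01, 7.46 and 8.19 in DKO and 7.68, 7.90 and 7.40 in WT, at 0.23 (limma adjusted p = 0.459). Mad2l1, part of the inhibitor of the anaphase-promoting complex, was at 0.18, and Bub3, a scaffold of the checkpoint, was at 0.01.

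The members that act through the anaphase-promoting complex had negative differences that did not pass. Cdc20, the coactivator that starts anaphase, read 7.52, 7.39 and 7.69 in DKO and 7.47, 8.004 and 7.62 in WT, at -0.17 (limma adjusted p = 0.470). Ube2c, the ubiquitin-conjugating enzyme that primes its substrates, read 6.96, 6.42 and 7.04 in DKO and 7.20, 6.99 and 6.80 in WT, at -0.19 (limma adjusted p = 0.480). In both, DKO 2 was the lowest of the 6 arrays.

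At the centromere, Cenpe, a kinesin that moves chromosomes to the middle, was at 0.14, Ndc80, the microtubule-binding kinetochore protein, at 0.06, and Cenpa, the centromeric histone, at -0.02. Cenpf, a large kinetochore protein that accumulates in G2, read 8.27, 7.85 and 8.14 in DKO and 7.62, 8.43 and 8.01 in WT. WT 1 and WT 2 held its extremes, with an SD of 0.212 in DKO and 0.407 in WT, and the difference was 0.07 (limma adjusted p = 0.846). Its sign was negative without DKO 1 (-0.02) or without WT 1 (-0.13).

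Spindle motors and spindle proteins split evenly by sign, with no call. Kif11, the motor that pushes the spindle poles apart, read 9.56, 9.003 and 9.55 in DKO and 9.06, 9.28 and 9.005 in WT, at 0.26 (limma adjusted p = 0.294). DKO 1 and DKO 3 lay above every WT array while DKO 2 lay level with the lowest one. Kif2c, a kinesin that shortens microtubules at centromeres, read 6.91, 6.60 and 6.86 in DKO and 6.88, 7.23 and 7.14 in WT, at -0.29 (limma adjusted p = 0.132, and 0.0494 without WT 1, in a range of 0.0494 to 0.566). The spindle organisers Hmmr, Tpx2 and Nusap1 were at 0.16, -0.09 and -0.04, and the chromosome kinesin Kif4 at 0.13. In the central spindle and cytokinesis group, Ect2, which activates RhoA for the contractile ring, was at 0.16, Kif20a at 0.06 and the ring scaffold Anln at 0.0014. The midzone bundler Prc1 was at -0.04, and Racgap1 and Kif23, partners in the centralspindlin complex, were at -0.17 and -0.19.

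By the probe sets used, the marks of proliferation in common use did not differ beyond the spread of the arrays. Mki67, which coats mitotic chromosomes and is the standard marker of cycling cells, read 9.62, 9.27 and 9.48 in DKO and 9.20, 9.44 and 9.25 in WT, at 0.16 with an interval of -0.09 to 0.41 (limma adjusted p = 0.382). Top2a, the topoisomerase that untangles sister chromosomes, read 10.56, 9.98 and 10.46 in DKO and 10.16, 10.40 and 10.09 in WT, at 0.11 with an interval of -0.23 to 0.46 (limma adjusted p = 0.661). In both genes DKO 1 and DKO 3 exceeded all WT arrays and DKO 2 was lower than WT 2. A further, dimmer Top2a probe set, not used for the gene, disagreed in size, with 5.49, 4.92 and 5.60 in DKO and 4.73, 4.79 and 4.20 in WT, a difference of 0.76. Its groups did not overlap, and all its values lay below the array medians. With the mean of both probe sets Top2a was at 0.44 and did not pass (limma adjusted p = 0.114).

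**Figure D3:**
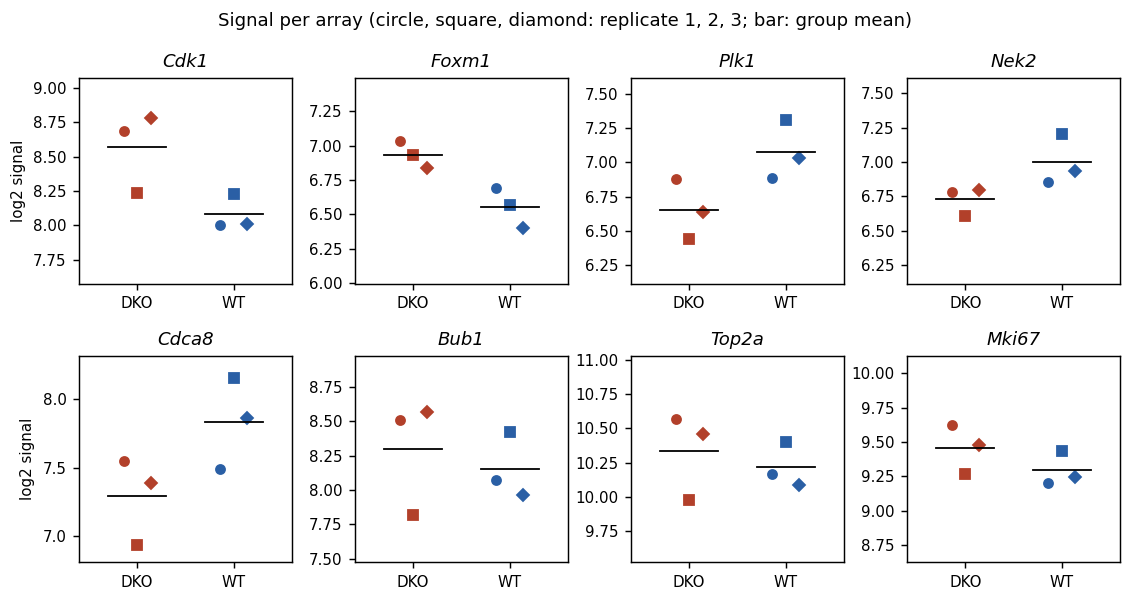
Log2 signal (y axis, each panel 1.5 units high) of 8 members in the 3 DKO arrays (left) and the 3 WT arrays (right), with circle, square and diamond for replicates 1, 2 and 3 and a bar for the group mean. In Cdk1, Bub1, Top2a, Mki67, Nek2, Plk1 and Cdca8 the DKO square is the lowest DKO point and the WT square the highest WT point; Foxm1 is the exception.

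Replicates within a group differed together over nearly the whole list, and by more than the groups did. The median of the 35 members was 8.09, 7.76 and 8.16 in the DKO arrays and 7.87, 8.25 and 7.97 in the WT arrays. DKO 2 was thus the lowest array and WT 2 the highest, and the array medians averaged 8.004 ± 0.215 in DKO and 8.03 ± 0.199 in WT (SD, n = 3 each), -0.03 apart. DKO 2 lay below its group mean in 35 of 35 members and was the lowest DKO array in 34 (97.1%), all but Foxm1, against 32.8% of all genes. WT 2 was the highest WT array in 30 of 35 (85.7%), against 30.2% of all genes. The exceptions were Foxm1, Ube2c and Anln, highest in WT 1, and Kif4 and Racgap1, highest in WT 3.

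The median deviation of the members from their group mean was 0.12, -0.27 and 0.12 in the DKO arrays and -0.08, 0.18 and -0.10 in the WT arrays. Over all genes these medians lay between -0.01 and 0.01. The titles point to RMA signals, which are scaled to a common distribution, so this cannot show that the arrays were level. The members' median SD was 0.231 in DKO and 0.201 in WT, against 0.0985 and 0.125 over all genes. The SD exceeded the all-gene median in 34 members in DKO and in 31 in WT, and the upper quartile in 30 and 19. The standard error of the difference was accordingly above the all-gene median of 0.103 in 34 of 35 members, with a median of 0.141. All values of the 35 members lay above the highest array median. The members were read from the same RNA on the same arrays, so their agreement is not 35 separate observations.

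**Figure D4:**
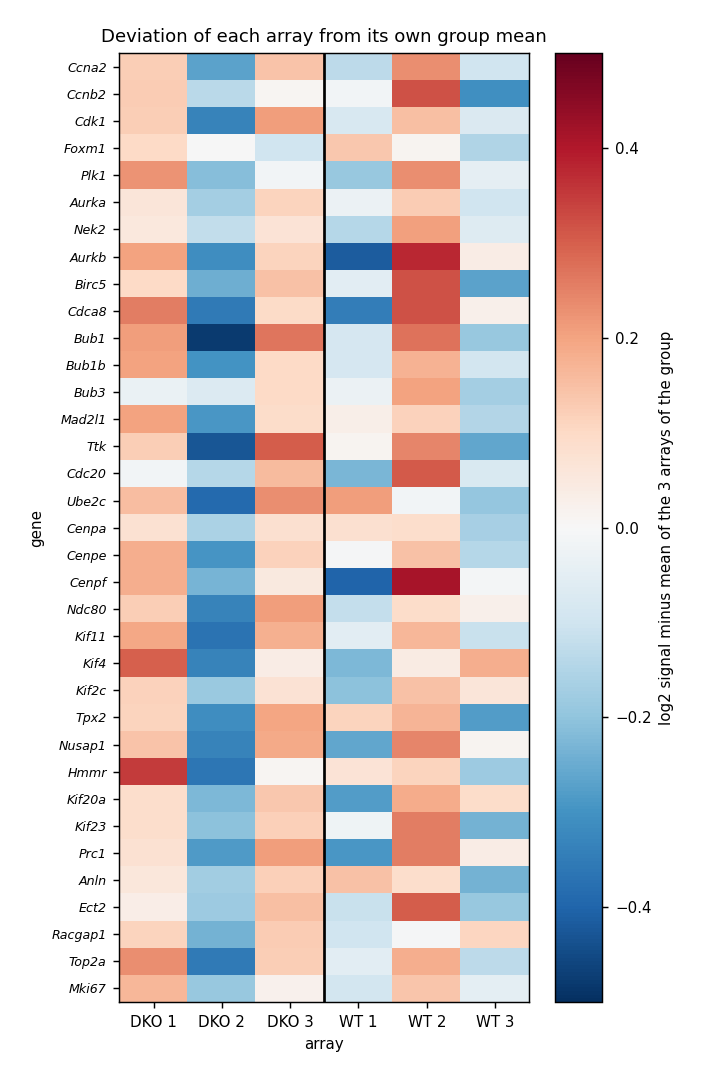
Log2 signal minus the mean of the 3 arrays of the same group (colour, red above and blue below) for each of the 35 genes (rows) in the 3 DKO and 3 WT arrays (columns, split by the black line). The DKO 2 column is below its group mean in 35 of 35 genes, and the WT 2 column is the highest WT value in 30.

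Leaving out DKO 2 and WT 2, a choice made after seeing that they stood apart, raises the difference of nearly every member by construction. Without both, 28 members had positive differences, the median was 0.25, and 4 were called higher by limma with 2 arrays a group. These were Cdk1 at 0.73 (limma adjusted p = 0.00921), Kif11 at 0.52 (0.0244), Bub1 at 0.52 (0.0278) and Ttk at 0.56 (0.0415). For Bub1 and Ttk the limma adjusted p ranged from 0.0278 to 0.991 and from 0.0415 to 0.850 over the 17 alternatives. Kif11 was called as well without DKO 2 alone, in a range of 0.0244 to 0.851. Foxm1 did not pass there (0.39, limma adjusted p = 0.123).

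Other mitotic genes and some relatives, such as the transport kinesin Kif5b, made up 6 lists that leave out the members. Of these 139 genes 136 were measured, with differences from -1.21 to 0.80, against -0.54 to 0.49 among the members. Called higher were 7.69% of the Cdk1 switch, 22.2% of the anaphase-promoting complex and 5.88% of kinetochore and centromere proteins. It was 45% of condensin and cohesin, 18.2% of further kinesins and 16.7% of DREAM and MuvB-Myb regulators, against 9.71% of all genes. Called lower were, in the same order, 15.4%, 11.1%, 5.88%, 10%, 6.06% and 16.7%, against 7.69% of all genes. Among 13 genes of the Cdk1 switch, 1 was called higher and 2 lower, with a median of -0.05; the lower count was 1 without DKO 2 or DKO 3, and the higher count 2 with median centring, array weights or dim genes removed. Wee1, the kinase that restrains Cdk1, read 8.93, 9.03 and 9.20 in DKO and 8.07, 8.51 and 8.27 in WT, 0.77 higher in DKO (limma adjusted p = 0.00322) and called in all 17 alternatives. Pkmyt1, which also restrains Cdk1, was at -0.37 (limma adjusted p = 0.0144, lost without DKO 2 at 0.0592 or DKO 3 at 0.0547). Ccnf, cyclin F, a ubiquitin ligase subunit, was at -0.59 (limma adjusted p = 0.0128). The 2 inhibitory kinases of Cdk1 therefore differed in opposite directions.

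Among 18 subunits and coactivators of the anaphase-promoting complex, 4 were called higher and 2 lower, with a median of 0.13. Ube2s, the enzyme that lengthens its ubiquitin chains, read 7.25, 7.21 and 7.41 in DKO and 8.28, 8.93 and 8.31 in WT, a difference of -1.21 (limma adjusted p = 0.00124) that was called in all 17 alternatives. The complex's platform subunit Anapc4 read 8.43, 8.41 and 8.66 in DKO and 7.85, 7.70 and 7.57 in WT, at 0.80 (limma adjusted p = 0.00129) and also called in all 17. Both groups of arrays were well apart for these genes. The scaffold subunit Anapc1 was at 0.55 (limma adjusted p = 0.00672) and the subunit Cdc27 at 0.39 (0.0238), the call of Cdc27 being lost without DKO 3 (0.0897), WT 2 (0.0563) or WT 3 (0.0594). Fzr1, the coactivator of late mitosis and G1, was at -0.34 (limma adjusted p = 0.0222), lost without DKO 1 (0.0765), DKO 3 (0.0893) or WT 2 (0.0507). The balance of 4 higher and 2 lower followed the scaling, with 2 higher and 3 lower after quantile normalisation or cyclic loess, and 1 higher and 3 lower with a trend over signal and gene span removed. The count of higher calls was 2 without DKO 3, WT 2 or WT 3, and that of lower calls 1 without DKO 1, DKO 3 or WT 2.

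Of 36 kinetochore and centromere proteins 34 were measured, 2 called higher and 2 lower, with a median of -0.0022. This split followed the scaling, with 1 higher and 5 lower after quantile normalisation, 1 and 6 after cyclic loess, 1 and 4 with the trend removed, 2 and 5 without the dimmest 50% of genes and 2 and 1 after median centring. No gene was called higher without DKO 1, DKO 2, DKO 3 or WT 3 and 1 without WT 1 or WT 2, while lower calls ran from 1 (without DKO 2, DKO 3 or WT 2) to 4 (without WT 1). Incenp, the scaffold of the chromosomal passenger complex, read 8.12, 7.28 and 7.87 in DKO and 8.71, 8.60 and 8.57 in WT, a difference of -0.87 (limma adjusted p = 0.0104) called in all 17 alternatives. Incenp joins the 3 passenger members above in 1 complex, and DKO 2 was its lowest array too. Cenpc1 (0.48), Cenpq (0.33) and Cenpw (-0.48), of the inner kinetochore, had limma adjusted p of 0.0394, 0.0379 and 0.0362. Cenpc1 was lost without DKO 1 (0.136), DKO 2 (0.0908), DKO 3 (0.0782), WT 1 (0.103) or WT 3 (0.118). Cenpq was lost without DKO 1 (0.0728), DKO 2 (0.0647), DKO 3 (0.140), WT 2 (0.0840) or WT 3 (0.0910), and Cenpw without DKO 2 (0.0882), DKO 3 (0.0589), WT 2 (0.0913) or WT 3 (0.0874).

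Condensin and cohesin, the rings that compact chromosomes and hold sisters together, had 9 of 20 genes called higher and 2 lower, with a median of 0.22. Nipbl, which loads cohesin, read 10.01, 10.08 and 10.04 in DKO and 9.38, 9.38 and 9.41 in WT, at 0.65 (limma adjusted p = 0.000783). The cohesin subunit Stag2 read 9.47, 9.56 and 9.53 in DKO and 9.07, 8.83 and 8.89 in WT, at 0.59 (limma adjusted p = 0.00272). Both were called in all 17 alternatives, and their groups were far apart beside a narrow spread. Ncapd3, of condensin II, was at 0.43 (limma adjusted p = 0.00872). Ncaph2, of condensin II, was at -0.32 (limma adjusted p = 0.0286) and Ncapd2, of condensin I, at -0.41 (0.0449), the call of Ncapd2 being lost without any 1 array (0.0542 to 0.118) and that of Ncaph2 without any but WT 3 (0.0546 to 0.102). The 9 higher calls were 4 with quantile normalisation or cyclic loess or without DKO 1 or DKO 3, 6 without DKO 2 or WT 3, and 2 with the trend removed, and lower calls were 0 after median centring. The genes of this list are long, with a median span of 45.5 kb against 17.7 kb over all genes. Those of 2 lists below are nearly as long, at 39.9 kb for further kinesins and spindle proteins and 40.8 kb for DREAM and MuvB-Myb regulators. Whether length bears on the calls was not tested.

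Of 33 further kinesins and spindle proteins, 6 were called higher and 2 lower, with a median of -0.04. Kif2a, a kinesin that shortens microtubules at spindle poles, read 9.89, 9.81 and 9.89 in DKO and 9.33, 9.17 and 9.31 in WT, at 0.60 (limma adjusted p = 0.00184), and was called in all 17 alternatives. It thus lay opposite in sign to Kif2c, its relative among the members, at -0.29 without a call. Ckap5, a microtubule polymerase, was at 0.48 (limma adjusted p = 0.00898) and Kif5b, a transport kinesin, at 0.41 (0.00950). Psrc1 was at -0.47 (limma adjusted p = 0.0128, and 0.0546 without DKO 2). Numa1, which anchors the spindle poles, was at -0.28 (limma adjusted p = 0.0467), a call lost without any 1 array (0.0765 to 0.155). The 6 higher calls were 3 without DKO 1 or DKO 3 and 2 with the trend removed.

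The list of 18 DREAM and MuvB-Myb regulators also holds Rb1 and E2F genes outside these complexes. Of the 18 genes, 3 were called higher and 3 lower, with a median of 0.21. Higher calls were 6 without DKO 2, 5 without WT 2 or without the dimmest 50% of genes, and 2 after quantile normalisation or cyclic loess, with the trend removed or without DKO 1. Lower calls were 5 with the mean of all probe sets and 2 without DKO 3 or without the dimmest 50% of genes. The E2F partner of DREAM, E2f4, read 7.32, 7.25 and 7.37 in DKO and 8.03, 8.26 and 8.09 in WT, at -0.81 (limma adjusted p = 0.000573). The pocket protein Rbl2, also called p130, a DREAM subunit of resting cells, read 7.80, 7.93 and 7.91 in DKO and 7.41, 7.50 and 7.31 in WT, at 0.47 (limma adjusted p = 0.00682). Rb1, the retinoblastoma protein, read 8.09, 7.92 and 7.95 in DKO and 7.47, 7.61 and 7.37 in WT, at 0.50 (limma adjusted p = 0.00714). These 3 were called in all 17 alternatives, without overlap between the groups. Mybl2, B-Myb, read 6.66, 6.77 and 6.63 in DKO and 7.19, 7.07 and 7.53 in WT, at -0.58 (limma adjusted p = 0.0112, and 0.0501 without DKO 3). Tfdp2, an E2F partner, was at 0.36 (limma adjusted p = 0.0163, and 0.0721 without DKO 1), and E2f2 at -0.51 (0.0124). Mybl2 and Foxm1, the activators of mitotic genes, thus differed in opposite directions, Mybl2 lower and Foxm1 higher in DKO.

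The low DKO 2 and high WT 2 values recurred in some of these lists. DKO 2 was the lowest DKO array in 31 of 34 kinetochore proteins, 28 of 33 kinesins and spindle proteins, 15 of 20 condensin and cohesin genes, 12 of 18 DREAM and MuvB-Myb regulators and 10 of 13 genes of the Cdk1 switch, but in 7 of 18 genes of the anaphase-promoting complex. Over all genes DKO 2 was the lowest DKO array in 32.8%. WT 2 was the highest WT array in 61.8% of kinetochore proteins, 63.6% of kinesins and spindle proteins and 60% of condensin and cohesin genes. For DREAM and MuvB-Myb regulators it was 72.2%, for the Cdk1 switch 69.2% and for the anaphase-promoting complex 38.9%, against 85.7% of members and 30.2% of all genes. The median deviation in DKO 2 was -0.27 for the kinetochore proteins, -0.22 for the kinesins and -0.02 for the anaphase-promoting complex. Subunits of the anaphase-promoting complex are needed outside mitosis too, and whether this bears on their order of arrays was not tested.

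Lists of markers of sorted and other cells did not share the members' order of arrays, and some reversed it. In DKO 2 the median deviation was 0.03 for the surface markers, -0.12 for erythroid, 0.11 for B cell, 0.08 for T and NK cell, 0.08 for neutrophil and monocyte, 0.10 for mast cell and 0.18 for megakaryocyte genes, and in DKO 3 that of erythroid genes was -0.22. In WT 2 these medians were -0.06 for the surface markers and for erythroid genes, 0.09 for B cell and -0.09 for T and NK cell genes. They were -0.13 for neutrophil and monocyte, 0.08 for mast cell and -0.11 for megakaryocyte genes. For the surface markers and the T and NK cell, neutrophil and monocyte, and megakaryocyte genes the order was the reverse of the members'. In these lists DKO 2 had the highest DKO median and WT 2 the lowest WT median. Between the groups, sums of linear signal over these lists rested on few genes. For 6 genes listed for mast cells the sum was 2429 to 2741 in DKO and 544 to 657 in WT, with 3 called higher and 2 lower. The differences ran from Mcpt8, a protease better known from basophils, at -1.32 to Cpa3 at 3.43. For 6 megakaryocyte genes it was 1038 to 1508 in DKO and 748 to 908 in WT, with 3 called higher, Gp5 the most (2.80), and Pf4 lowest at -0.51 without a call. For 7 erythroid genes it was 1232 to 1528 in DKO and 1444 to 1919 in WT, with 2 called lower, Car1 the most (-2.02), and Car2 highest at 0.36 without a call. For 6 B cell genes it was 300 to 322 in DKO and 418 to 545 in WT, the 1 called gene being Cd72 (-2.05), and the other 5 lay between -0.26 and 0.08 without a call. For 8 T and NK cell genes it was 352 to 383 in DKO and 780 to 812 in WT, the 1 called gene being Nkg7 (-2.02), and the other 7 lay between -0.14 and 0.18 without a call, so neither sum is a level of these lineages. For 10 neutrophil and monocyte genes it was 459 to 487 in DKO and 517 to 755 in WT, with Cebpe called lower (-0.34) and the others between -0.78 (S100a9) and 0.36 (Itgam) without a call. The part of cell makeup in the members' values was not tested.

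**Figure D5:**
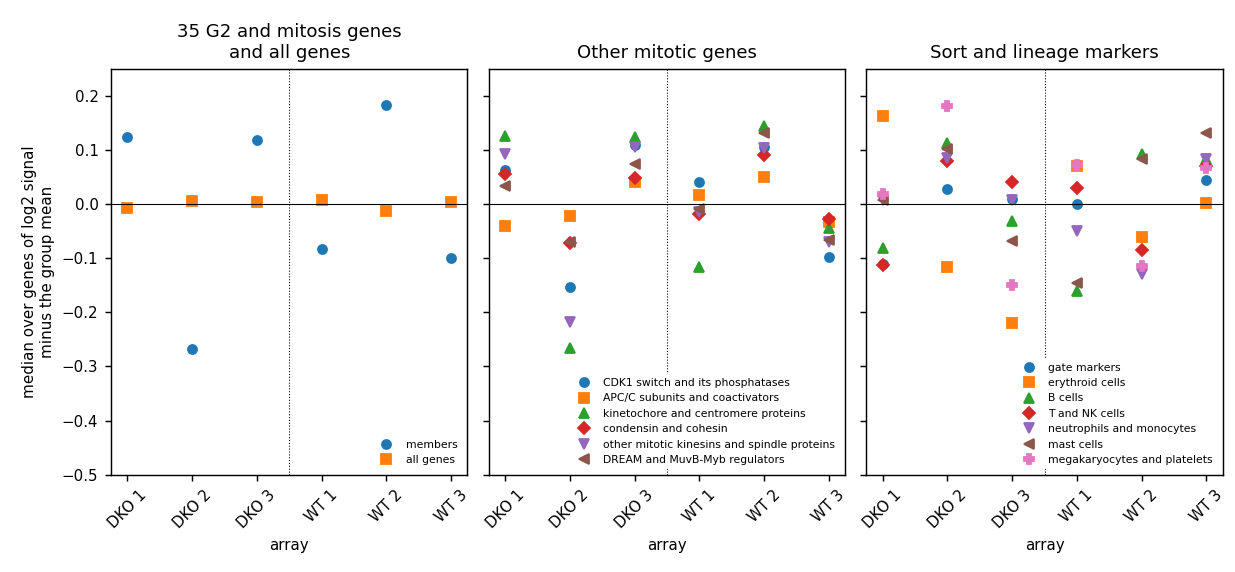
Median over genes of log2 signal minus the group mean (y axis) in the 3 DKO and 3 WT arrays (x axis), for the 35 members and all genes (left), 6 lists of other mitotic genes and relatives (middle) and 7 lists of surface and lineage markers (right). The gate markers of the legend are Kit and further surface markers not named in the sort. The members are lowest in DKO 2 (-0.27) and highest in WT 2 (0.18), the kinetochore proteins lie beside them, and all genes stay between -0.013 and 0.0073.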

How the data were processed

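The deposited values were log2 signals, 1 per probe set and array. Per the labels, titles point to RMA at gene level with default settings, whereas the design text names MAS 5.0, and the submitters' processing notes list Affymetrix Expression Console 1.0. The deposited range, 1.25 to 13.7, is that of log2 values. The genome build behind the array annotation was not found, so no array coordinates are printed.

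Of 35556 probe sets, 21789 had 1 gene symbol, 1621 several and 12146 none. DKO and WT were compared over 19938 genes with limma 3.58.1 (lmFit, eBayes; 5.52 prior and 4 residual degrees of freedom) in R 4.3.3, two-sided, without a filter on dim genes. P-values set a difference against the spread between these samples, moderated over all genes. Whether that spread is between mice or between pools is unsettled. An exact permutation test of 3 against 3 arrays cannot go below 0.1 and was not used. The members and gene lists were chosen with earlier results of these data known, so no list was tested as a set. Values per array are given for called members, members at least 0.3 apart without overlap, the 3 with the largest SD, Mki67, Top2a, Cdk1 and Plk1. Those of Nek2, Aurka, Cdca8, Birc5, Ccna2, Ccnb2, Ttk, Kif11, Kif2c, Cdc20 and Ube2c were added after their values were seen. From each mitotic list up to 3 called genes of each direction with the smallest p are named. Alternatives were quantile, median and cyclic loess scaling, filters on dim genes, probe set means, limma with trend and robust settings, array weights, a replicate block, a trend over signal and span removed (mgcv 1.9.3), and each array left out.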

Additional observations from a re-analysis of the deposited data

How the results depend on the processing

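Of the 35 members, the 2 higher calls became 1 with quantile normalisation, cyclic loess, the replicate block or the trend over signal and span removed, 4 without DKO 2 and WT 2 together, and 0 to 2 with 1 array left out. Lower calls, 0 at first, numbered 1 without the dimmest 50% of genes and 0 to 3 with 1 array left out. The cause was not tested. With 1 array left out, 1250 to 1868 genes were called higher and 843 to 1388 lower over all genes, and without DKO 2 and WT 2 together 793 were called lower, with fewer arrays in the fit. The members' median difference was then 0.252. None of the following reversed differences was called. Cenpf was at -0.0474 and Top2a at -0.00942 with quantile normalisation, and at -0.0410 and -0.00960 with cyclic loess. With the trend removed, Bub1 was at -0.00436, Cenpf at -0.0947, Top2a at -0.0161 and Mki67 at -0.00267. With 1 array left out, Cenpf ran from -0.134 to 0.273, Top2a from -0.000511 to 0.291 and Aurkb from -0.261 to 0.134, and Aurkb was at 0.289 without DKO 2 and WT 2 together. Samples of the same replicate number did not deviate together (correlations of deviations over all genes -0.00874, -0.0954 and -0.0419), so the numbers were not taken as pairs, and the replicate block left Foxm1 as the 1 higher call among the members, with Cdk1 at a limma adjusted p of 0.0603. Among the named genes of the other lists, calls ended for Anapc1, Cdc27, Cenpc1, Ncapd3, Ckap5, Kif5b and Tfdp2 with the trend removed (limma adjusted p from 0.0604 to 0.239), for Cdc27, Cenpc1, Kif5b and Tfdp2 with quantile normalisation (0.0569 to 0.164), for Cenpw, Ncaph2, Ncapd2 and Numa1 with median centring (0.0585 to 0.0868), and for Cenpq, Ncaph2 and Numa1 with the replicate block (0.0671 to 0.100). The 3 arrays a group limit the precision of the members' values.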
